A study of Mus musculus with 235 samples.

Results

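Neuropeptide transcripts were followed for 10 genes, somatostatin (Sst), neuropeptide Y (Npy), cholecystokinin (Cck), proenkephalin (Penk), prodynorphin (Pdyn), tachykinin precursor 1 (Tac1), neurotensin (Nts), CART prepropeptide (Cartpt), PACAP (Adcyap1) and vasoactive intestinal peptide (Vip). They were chosen by symbol, and all 10 were found among the 27998 genes of the count table. The tissue came from male C57Bl/6 mice aged 3 months, and the labels name no engineered allele in either arm. Dexamethasone, a synthetic agonist of the glucocorticoid receptor, had been injected intraperitoneally at 10 mg per kg into 15 animals, and saline into the 15 vehicle animals, 4 h before tissue was taken. Brains of both arms were perfused, and tissue was punched from coronal sections in 8 regions, which the labels call vDG, dDG, vCA1, dCA1, PVN, PFC, CER and AMY. Each library holds 1 punch of 1 animal, and a group of region and arm has 13 to 15 libraries, 235 in all. The questions are where each peptide gene is expressed at baseline and whether its transcript differs at 4 h of dexamethasone.

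Neuropeptides are cut from larger precursors in dense core vesicles and act on G protein-coupled receptors, often beyond the synapse. Cortical and hippocampal interneurons are classed in part by the peptide they make, with Sst, Vip and Cck among the markers of inhibitory classes and Npy shared by several of them, although Cck is also made by cortical pyramidal cells. Penk, Pdyn and Tac1 are known from striatal and amygdalar projection neurons, Pdyn also from dentate granule cells, and Cartpt, Nts and Adcyap1 from hypothalamic and limbic projection neurons. Several of these genes are textbook targets of cAMP signalling through CREB, and glucocorticoids act through a receptor that binds DNA itself.

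Counts are 3' end tags with unique molecular identifiers, so a value stands for tagged transcript molecules. The least deeply counted library had 268538 counts, the median one 742957 and the deepest 1451422. Levels are CPM, each count over its library's total as scaled by edgeR's TMM factors, and they are compared here between libraries of 1 gene and never between genes. In bulk punches, fewer cells of a type and less RNA per cell cannot be told apart. RNA integrity and library totals did not differ between arms in any region beyond their spread (16 two-sided permutation tests, smallest p = 0.282, adjusted p = 0.813). As a check of the injection, all 48 tests of 6 glucocorticoid response genes in the 8 regions were called higher under dexamethasone, and Fkbp5, a chaperone of the receptor, rose by 1.65 (dDG) to 2.79 (PFC) on the log2 scale.

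The labels were set against marker genes before the peptides were read. The labels do not say what CER stands for, and most CER punches held little or none of the granule and Purkinje cell genes that mark cerebellum. Gabra6, the granule cell GABA receptor subunit, was at 0 counts in 26 of 30 CER libraries with a highest value of 15.4 CPM, and Pcp2, a Purkinje gene, was at 0 in 26 of 30. Some ventral hippocampal punches did carry them: 7 of 30 vDG libraries and 1 of 29 vCA1 libraries exceeded 10 CPM of Gabra6, with highest values of 337 and 254 CPM. AMY punches held genes of striatal neurons, with Drd1 at 112 ± 81.2 CPM and Adora2a at 64.5 ± 48.2 CPM (SD, n = 15) in the vehicle arm, but Drd2, another defining gene, was at 0 counts in 12 of these 15 libraries. PVN punches held the paraventricular factor Sim1 over 10 CPM in 18 of 29 libraries, together with the lateral hypothalamic peptide genes Hcrt at 645 ± 896 and Pmch at 829 ± 640 CPM in the vehicle arm (SD, n = 14). Punches labelled dCA1 had as much of the dentate gene Prox1 (514 ± 145 CPM, SD, n = 15) as those labelled dDG (455 ± 253 CPM, SD, n = 15). The region names below are therefore names of punches, and the share of each cell type in them was not measured. Whether punches or libraries were exchanged between regions was not tested.

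On GRCm38 the genes lie at chr16:23889581-23890844 (Sst, minus strand), chr6:49822710-49829507 (Npy, plus), chr9:121489825-121495689 (Cck, minus), chr4:4133531-4138819 (Penk, minus), chr2:129686565-129699844 (Pdyn, minus), chr6:7554879-7565834 (Tac1, plus), chr10:102481760-102490418 (Nts, minus), chr13:99898484-99900683 (Cartpt, minus), chr17:93199422-93205485 (Adcyap1, plus) and chr10:5639218-5647614 (Vip, plus), each from its first to its last counted exon base. The promoters of the peptide genes were read because cAMP and glucocorticoid signals are known to act through short elements in the DNA. RefSeq's table (GRCm38.p6, 250 bases before to 50 after the start site) held 9 of the 10, all but Penk. Both strands were searched for the cAMP response element TGACGTCA, for its shorter core TGACG, and for the glucocorticoid receptor hexamer AGAACA. The full element was found in Sst and Cartpt, against 2.03% of 27025 genes. The core, which is contained in the full element, was found in 7 of 9 promoters (Sst, Cck, Tac1, Nts, Cartpt, Adcyap1 and Vip), against 23.0% of genes. The glucocorticoid receptor hexamer was in 0 of 9, against 21.3% of genes. These letters are a description of the window and not evidence of binding. The matches are shown with 16 flanking bases on each side, in the direction of the gene, with the match in capitals. A core on the opposite strand therefore reads as CGTCA. Each lies before the start site of the RefSeq table, from 43 bases before it in Tac1 to 197 bases before it in the other Tac1 match. That start can differ from the first counted exon base, and in Tac1 the window at chr6:7555002-7555038 lies inside the counted gene.
Sst (chr16:23890869-23890908, minus strand): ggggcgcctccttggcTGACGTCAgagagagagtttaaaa
Cartpt (chr13:99900772-99900811, minus strand): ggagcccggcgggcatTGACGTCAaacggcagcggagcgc
Adcyap1 (chr17:93198910-93198946, plus strand): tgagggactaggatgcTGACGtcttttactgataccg
Vip (chr10:5639123-5639159, plus strand): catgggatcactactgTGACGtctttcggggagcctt
Cck (chr9:121495721-121495757, minus strand): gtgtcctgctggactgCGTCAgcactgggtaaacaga
Tac1 (chr6:7554848-7554884, plus strand): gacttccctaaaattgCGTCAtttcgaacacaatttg
Tac1 (chr6:7555002-7555038, plus strand): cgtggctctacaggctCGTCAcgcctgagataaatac
Nts (chr10:102490564-102490600, minus strand): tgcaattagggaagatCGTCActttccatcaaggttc

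The baseline map comes from the 118 vehicle libraries. All 10 genes differed among the 8 regions (edgeR quasi-likelihood F test with the animal as a block, largest adjusted p = 2.12e-11 for Sst), as did 73.3% of the 10451 genes tested, so regional difference as such is common. What separates the peptides is its size. Sst was the most even, with 42.2% of its variance on the log2 CPM scale lying between regions and a 2.51-fold span between the highest and lowest regional means. Vip was the most uneven by span, at 42.2-fold, followed by Cartpt at 28.3-fold and Penk at 23.7-fold, and 75.3%, 77.3% and 80.8% of their variance lay between regions. The lowest means behind the Vip and Cartpt spans were near the floor, which limits this ranking. They were 1.69 CPM for Vip in PVN, where 5 of 14 libraries had 0 counts, and 3.41 CPM for Cartpt in vDG. The lowest Penk mean was 37.9 CPM, in vDG. Of the 28 pairs of regions, Sst differed in 15 and Vip in 23, with the other genes between; over all genes the share called in a pair ran from 1.89% (dCA1 against dDG) to 52.5% (CER against dCA1).

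**Figure D1:**
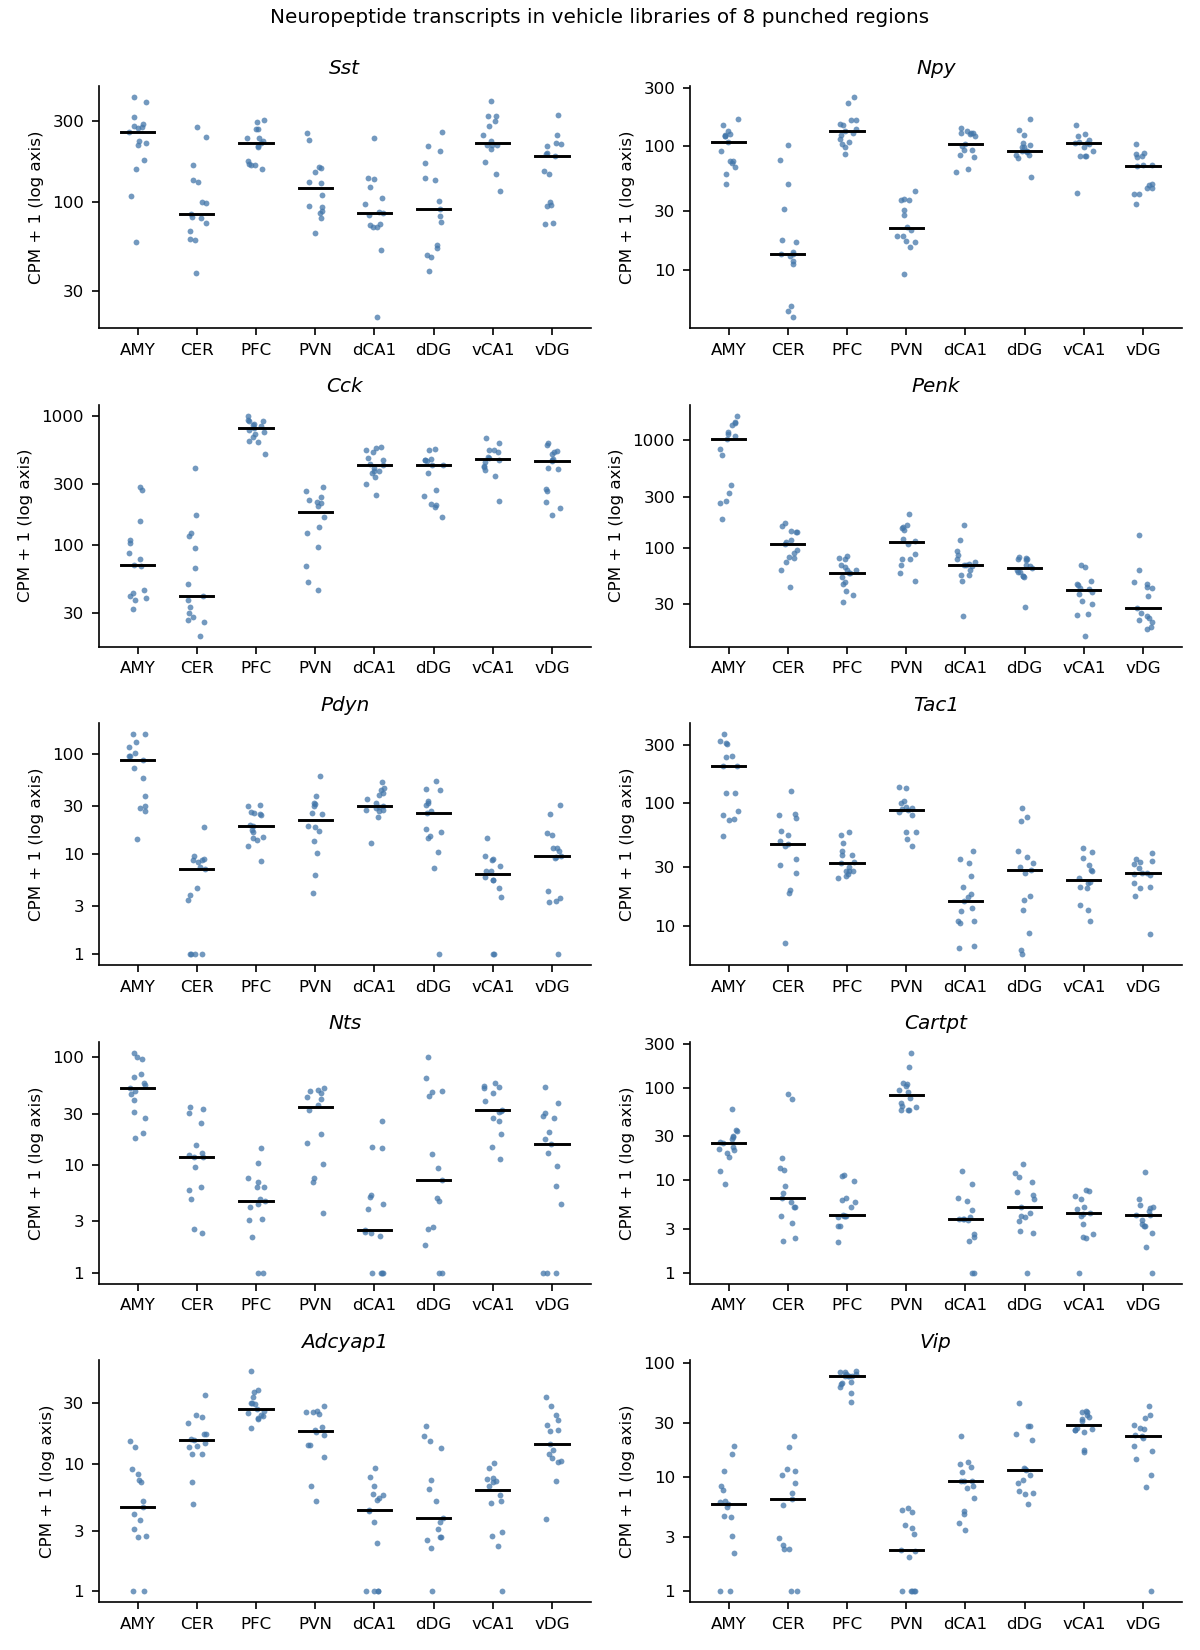
Levels of the 10 peptide genes in vehicle libraries, 1 panel per gene. Each point is 1 library (n = 14 in PVN and vCA1, 15 elsewhere), the vertical axis is CPM + 1 on a log axis, and the black line is the median. Penk, Tac1 and Pdyn peak in AMY, Cartpt in PVN, and Cck and Vip in PFC, where all Vip points lie above those of the other regions.

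Penk, the precursor of the enkephalins, was the clearest AMY gene. Its vehicle AMY libraries ran from 184 through a median of 1037 to 1699 CPM. PVN followed with 48.7, 112 and 205 CPM, and vDG came last with 16.6, 26.4 and 129 CPM, not separated from vCA1 (adjusted p = 0.991). Of the 15 AMY libraries, 14 lay above every library of the other regions. Against the mean of the other 7 regions Penk was higher in AMY by 3.71 ± 0.127 on the log2 scale (SE, edgeR, adjusted p = 1.74e-49), where 25.1% of genes differed. PVN and CER, at means of 113 and 107 CPM, did not differ beyond their spread (0.04 ± 0.226, SE, adjusted p = 0.939), and CER lay above dCA1 (0.56 ± 0.233, SE, adjusted p = 0.0357).

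Tac1, the precursor of substance P and neurokinin A, had a similar shape with a smaller span. Vehicle AMY libraries ran from 53.1 through 200.4 to 365 CPM, and PVN libraries from 44.0 through 87.6 to 134 CPM. The lowest AMY libraries fell inside the PVN range, and 8 of 15 lay above every library elsewhere. AMY exceeded PVN by 1.14 ± 0.231 on the log2 scale (SE, edgeR, adjusted p = 5.17e-05), and PVN exceeded CER by 0.79 ± 0.254 (SE, adjusted p = 0.0134). The next neighbours in the order, CER, PFC, dDG, vDG, vCA1 and dCA1, did not differ from each other step by step, and their means fell from 49.3 to 17.6 CPM.

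Pdyn, the precursor of the dynorphins, was highest in AMY at 13.3, 85.6 and 157 CPM (lowest, median and highest of 15). Its second place was hippocampal: dCA1 libraries ran from 12.1 through 29.5 to 51.5 CPM, and dDG libraries from 0 through 24.6 to 52.5 CPM. AMY exceeded dCA1 by 1.23 ± 0.232 on the log2 scale (SE, edgeR, adjusted p = 4.34e-06), while dCA1, dDG, PVN and PFC followed without a step beyond the spread. The lowest levels were in vCA1 (0, 5.41 and 13.6 CPM) and CER (0, 6.17 and 17.8 CPM), which did not differ (0.11 ± 0.478, SE, adjusted p = 0.881).

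The AMY values of these 3 genes followed a striatal marker list. The striatal marker list (8 genes, among them Drd1, Adora2a, Ppp1r1b and the nearly undetected Drd2, as mean log2(CPM + 1)) ranged from 3.64 to 7.23 over the 15 vehicle AMY libraries, and the widest gap between neighbours was 0.76, with 6 libraries below it. Penk correlated with it at Pearson r = 0.95 and Spearman rho = 0.91 (n = 15, permutation p = 1e-05 and 5e-05, the first being the smallest that 100000 permutations give), and at r = 0.93 without the 2 libraries farthest from the median. For Tac1 the values were r = 0.90 and rho = 0.88 (permutation p = 3e-05 and 5e-05), and r = 0.89 without 2 libraries. For Pdyn they were r = 0.86 and rho = 0.81 (permutation p = 9e-05 and 0.00054), and r = 0.83 without 2 libraries. None of the other 7 genes passed. Npy came nearest, at r = 0.68 (rho = 0.63, permutation p = 0.0062 and 0.0133, adjusted p = 0.144 and 0.251, and r = 0.58 without 2 libraries), and Adcyap1 stood at r = -0.52 (rho = -0.47, permutation p = 0.0481 and 0.0805, adjusted p = 0.363 and 0.473, and r = -0.43 without 2 libraries). The remaining 5 ran from r = -0.29 (Cartpt) to 0.07 (Vip). In all, 2080 such relations were computed (10 genes, 13 marker lists, 16 groups), of which 38 passed an adjusted Pearson p of 0.05. The adjusted Pearson p was 0.00347, 0.00624 and 0.0104 for Penk, Tac1 and Pdyn, and the adjusted Spearman p was 0.0173, 0.0173 and 0.0535.

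The dexamethasone AMY libraries gave r = 0.87 for Penk (rho = 0.82, permutation p = 8e-05 and 0.00038, adjusted p = 0.0104 and 0.0458). Tac1 stood there at r = 0.77 (rho = 0.70, permutation p = 0.00099 and 0.00467, adjusted p = 0.052 and 0.157), and Pdyn at r = 0.65 (rho = 0.67, permutation p = 0.0106 and 0.0079, adjusted p = 0.184 and 0.2). Without the 2 libraries farthest from the median the 3 values were 0.85, 0.73 and 0.88. All points share the dissection, and single plates hold too few libraries of a group for a value within plates.

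**Figure D2:**
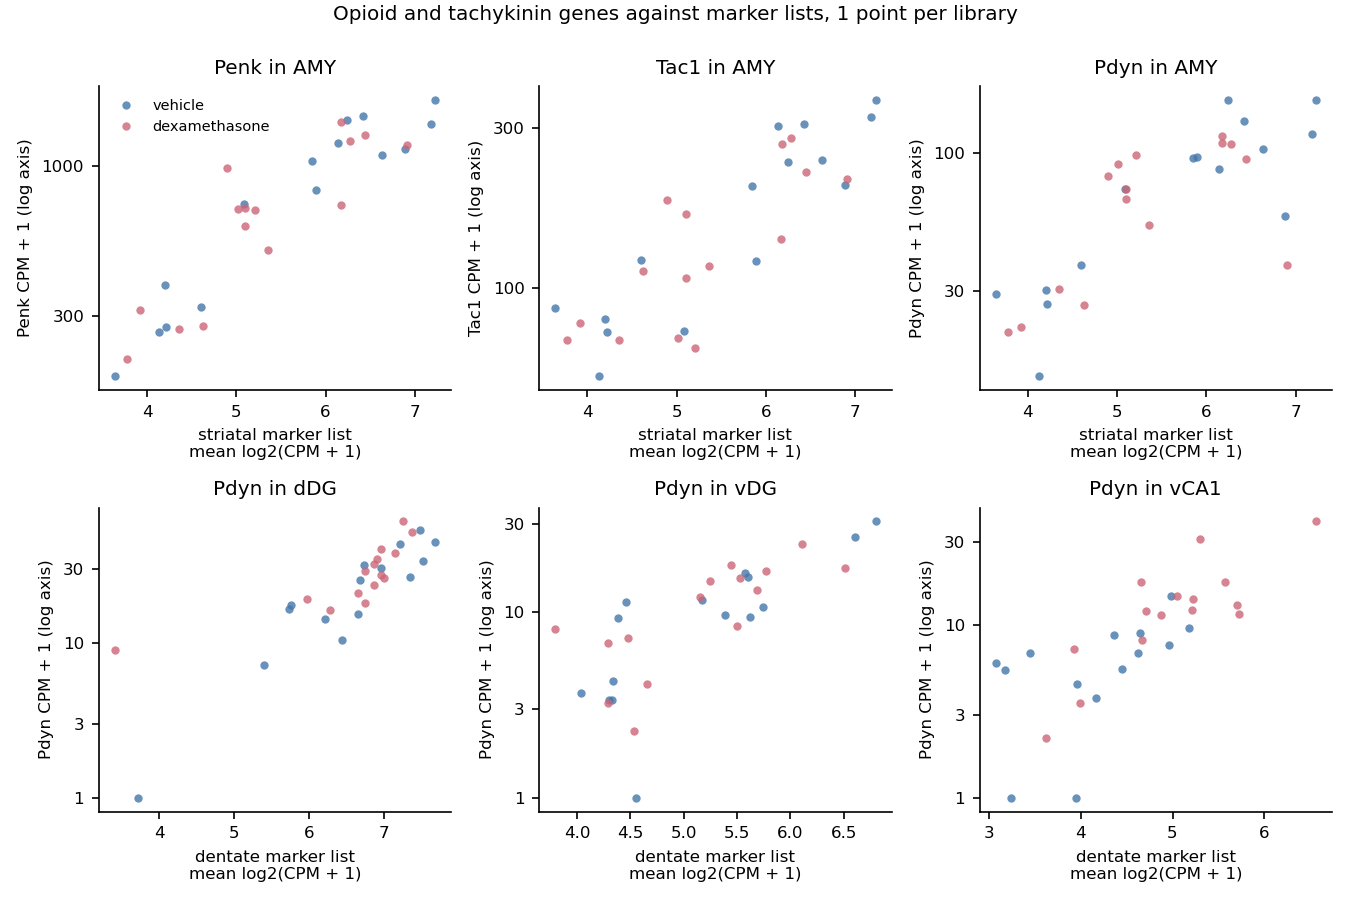
Penk, Tac1 and Pdyn in AMY against the striatal marker list, and Pdyn in dDG, vDG and vCA1 against the dentate granule list. Each point is 1 library, blue for vehicle and red for dexamethasone; the horizontal axis is the list's mean log2(CPM + 1) and the vertical axis is CPM + 1 on a log axis. Vehicle AMY libraries with a list level under 5 have at most 383 CPM of Penk, and the highest library, at 7.23, has 1699 CPM.

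In hippocampus Pdyn followed the dentate granule list (Prox1, Dsp, Stxbp6, Lct, Tdo2, Plk5, Npnt, C1ql2 and C1ql3) in part of the groups. In dDG it correlated with the list at r = 0.93 in vehicle libraries (rho = 0.90, permutation p = 1e-05 and 3e-05, adjusted p = 0.00347 and 0.0156, n = 15) and at r = 0.80 in dexamethasone libraries (rho = 0.85, permutation p = 1e-05 and 0.00017, adjusted p = 0.00347 and 0.0354, n = 15). Without the 2 libraries farthest from the median these were 0.78 and 0.87. The vehicle dDG library with the lowest list level, 3.72, had no Pdyn count at all. In vDG the vehicle value was r = 0.83 (rho = 0.78, permutation p = 0.00013 and 0.00107, adjusted p = 0.0135 and 0.0674), and 0.70 without 2 libraries. The vCA1 dexamethasone libraries also passed, at r = 0.83 (adjusted p = 0.0185, permutation test, n = 15). Of the groups that did not pass, vDG dexamethasone libraries gave r = 0.76 (rho = 0.80, permutation p = 0.00113 and 0.00068, adjusted p = 0.056 and 0.0566, n = 15). In dCA1 the vehicle value was r = 0.80 (rho = 0.61, permutation p = 0.00119 and 0.0174, adjusted p = 0.0576 and 0.284, n = 15) and the dexamethasone value r = 0.76 (rho = 0.78, permutation p = 0.00162 and 0.00223, adjusted p = 0.0669 and 0.0987, n = 13). Without the 2 farthest libraries these 3 values were 0.85, 0.61 and 0.69.

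Cortical and hippocampal interneuron peptides had other maps. Sst, made by dendrite-targeting interneurons and by many subcortical neurons, was highest in AMY (57.0, 256 and 412 CPM), vCA1 (115, 221 and 390 CPM) and PFC (156, 221 and 300.2 CPM). Those 3 regions did not differ from each other in neighbouring steps (adjusted p = 0.876 and 0.856), and each exceeded the mean of the other 7 by 0.60 to 0.76 on the log2 scale. The low end was dCA1, at 20.1, 85.0 and 237 CPM. Only 1 of 15 AMY libraries lay above every library elsewhere, so the ranges of all regions overlapped.

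Npy, a peptide of several interneuron classes that dampens excitation, was highest in PFC at 86.2, 133 and 251 CPM. The punches dCA1, AMY, vCA1 and dDG followed at means of 99.4 to 106 CPM, without a step beyond the spread between them, and PFC itself missed the threshold against dCA1 (0.44 ± 0.185, SE, edgeR, adjusted p = 0.0584). At 63.3 CPM, vDG lay below dDG by 0.67 ± 0.199 (SE, adjusted p = 0.0109) and above CER by 1.43 ± 0.239 (SE, adjusted p = 3.06e-07). CER and PVN had the lowest means, 24.7 and 24.1 CPM, and did not differ (adjusted p = 0.897).

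Cck was cortical and hippocampal. PFC libraries ran from 505 through 799 to 1002 CPM, and 12 of 15 lay above every library elsewhere. The 4 hippocampal punches had means of 359 to 464 CPM and did not differ in neighbouring steps, while PFC exceeded the nearest of them, vCA1, by 0.78 ± 0.24 on the log2 scale (SE, edgeR, adjusted p = 0.0132). A step of 1.10 ± 0.256 separated dDG from PVN (SE, adjusted p = 0.000165), and AMY and CER came last, at means of 96.0 and 83.2 CPM. The CER mean leans on a single library, vehicle replicate 9, with 395 CPM against a group median of 39.8 CPM. The same library had the highest Npy of its group (101 CPM, median 12.5 CPM), and its glutamatergic marker list, at 7.44 on the log2 scale, was the highest of the group, whose median was 5.38; the part of this in the Cck value was not tested.

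Vip, the peptide of disinhibitory interneurons, was the sole gene whose highest region stood wholly apart. All 15 PFC libraries (45.2, 76.1 and 83.9 CPM) lay above all 103 vehicle libraries elsewhere, the highest of which had 43.8 CPM in dDG. PFC exceeded the mean of the other 7 by 2.90 ± 0.151 on the log2 scale (SE, edgeR, adjusted p = 8.82e-34), where 39.5% of genes differed. Next came vCA1 (15.6, 28.0 and 37.1 CPM) and vDG (0, 21.9 and 41.4 CPM), then dDG, dCA1, CER and AMY. PVN was lowest at 0, 1.29 and 4.43 CPM, below AMY by 1.56 ± 0.482 (SE, adjusted p = 0.0113).

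Nts, a modulator of dopamine circuits and of feeding, was highest in AMY at 16.8, 51.2 and 109 CPM, followed by vCA1 at 10.4, 31.2 and 56.3 CPM and PVN at 2.59, 33.2 and 51.1 CPM. The step from AMY to vCA1 missed the threshold (0.71 ± 0.325, SE, edgeR, adjusted p = 0.0961). In dDG the vehicle libraries spread from 0 through a median of 6.28 to 98.6 CPM, so that its mean of 22.5 CPM describes few of them. PFC, with 0, 3.60 and 13.5 CPM, and dCA1, with 0, 1.49 and 24.8 CPM, were at the low end.

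Cartpt, whose peptide restrains feeding, was the PVN gene. PVN libraries held 56.9, 82.8 and 239 CPM, and 7 of 14 lay above every library elsewhere. PVN exceeded the next region, AMY (8.07, 24.3 and 58.5 CPM), by 2.05 ± 0.217 on the log2 scale (SE, edgeR, adjusted p = 1.33e-13), and exceeded the mean of the other 7 by 3.98 ± 0.159 (SE, adjusted p = 4.56e-44), where 41.1% of genes differed. CER ranked next at a mean of 16.0 CPM, which came down to 6.26 CPM without 2 libraries at 84.2 and 75.1 CPM. The punches of PFC and hippocampus had means of 3.41 to 5.38 CPM and did not differ in neighbouring steps.

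Adcyap1, which encodes PACAP, a strong activator of adenylyl cyclase, was highest in PFC at 18.0, 25.8 and 52.1 CPM. PVN (4.15, 17.0 and 27.4 CPM), vDG (2.68, 13.2 and 32.3 CPM) and CER (3.84, 14.3 and 33.8 CPM) followed, and did not differ from each other in neighbouring steps. PFC exceeded PVN by 0.69 ± 0.233 on the log2 scale (SE, edgeR, adjusted p = 0.0108), and CER exceeded dDG by 1.25 ± 0.312 (SE, adjusted p = 0.000389). The remaining punches were at means of 3.30 to 6.01 CPM.

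Read by region, the higher and lower genes were as follows. Against the mean of the other 7 regions, AMY had 7 peptide genes higher and 3 lower (25.1% of all genes differed), the lower ones being Cck, Adcyap1 and Vip. PFC had 5 higher and 3 lower (39.5%), with Penk, Nts and Cartpt lower. PVN had 4 higher, Tac1, Nts, Cartpt and Adcyap1, and 3 lower (41.1%). CER had 2 higher, Cartpt and Adcyap1, and 5 lower (47.9%). The Cartpt mean of CER came down from 16.0 to 6.26 CPM without its 2 highest libraries. In hippocampus, dCA1 had 3 higher and 5 lower (39.1%), dDG 3 and 3 (32.8%), vCA1 5 and 5 (19.7%) and vDG 3 and 4 (10.6%). Npy, Cck and Pdyn were the higher genes of both dorsal punches.

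Between single regions, AMY differed from PVN in 10 of 10 peptide genes (21.0% of all genes), from PFC in 9 (35.3%), from vDG in 9 (22.0%), from CER in 8 (25.8%), from dDG in 8 (35.7%), from dCA1 in 7 (38.9%) and from vCA1 in 6 (26.5%). CER differed from PFC in 9 (48.3%), from vCA1 in 9 (41.9%), from dCA1 in 8 (52.5%), from vDG in 8 (40.4%), from dDG in 7 (49.8%) and from PVN in 6 (24.6%). PVN differed from PFC in 9 (43.3%), from vCA1 in 9 (37.3%), from dCA1 in 8 (47.4%), from dDG in 7 (43.3%) and from vDG in 7 (34.0%). AMY against PVN was the sole pair in which all 10 differed. PFC differed from dCA1 in 6 (32.7%), from dDG in 6 (35.3%), from vDG in 6 (28.7%) and from vCA1 in 5 (16.6%). Across hippocampal levels, dCA1 differed from vDG in 7 (23.9%) and dDG from vCA1 in 4 (23.0%).

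Within hippocampus the peptides were compared between dorsal and ventral punches and between the paired labels of each level. Between dCA1 and dDG, 1 of 10 genes differed, Nts, which was lower in dCA1 by 2.02 ± 0.508 on the log2 scale (SE, edgeR, adjusted p = 0.0122, 1.89% of genes). Its dDG libraries spread from 0 through a median of 6.28 to 98.6 CPM, and its dCA1 libraries from 0 through 1.49 to 24.8 CPM. The dDG side thus leans on few libraries. Between dCA1 and vCA1, 5 of 10 differed (22.1% of genes): Pdyn was higher in dCA1 by 2.55 ± 0.344 and Penk by 0.93 ± 0.261, whereas Nts, Vip and Sst were lower there by 2.83 ± 0.472, 1.74 ± 0.284 and 1.25 ± 0.222 (SE, largest adjusted p = 0.00418). Between dDG and vDG, 6 of 10 differed (15.3% of genes): Pdyn, Penk and Npy were higher dorsally by 1.25 ± 0.309, 0.77 ± 0.259 and 0.67 ± 0.199, and Adcyap1, Vip and Sst were higher ventrally (adjusted p = 0.000262, 0.0472 and 0.0284). Between vCA1 and vDG, 2 of 10 differed (12.5% of genes), with Npy higher in vCA1 and Adcyap1 higher in vDG. The dentate list stood at 6.91 in dCA1 and 4.16 in vCA1, and at 6.50 in dDG and 5.13 in vDG (mean log2(CPM + 1), vehicle), and its part in these differences was not tested.

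Across the 118 vehicle libraries the genes with the nearest profile to a peptide were sought among genes with a mean of at least 5 CPM in some region. These values describe libraries that share animals, regions and depth, and carry no test. Penk was nearest to Gnal, the olfactory and striatal G protein subunit (r = 0.81), followed by Crabp1 and Lhx8. Cartpt was nearest to Isl1 (r = 0.82), Tac1 to Gad2 (r = 0.76), Npy to Ctxn1 (r = 0.88) and Adcyap1 to Car10 (r = 0.77). Pdyn was nearest to Rasd2 (r = 0.72), Sst to Pde1a (r = 0.70) and Nts to Gpr101 (r = 0.69). After regional means were subtracted, Sst and Pde1a stayed at 0.61, while Cartpt and Isl1 came to -0.06 and Penk and Lhx8 to -0.15. Nts and Vip gave the reverse: r = -0.02 over all libraries, and 0.57 within regions, where Nts was the gene nearest to Vip.

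No peptide gene passed the threshold for a response to dexamethasone in the fit with the filter on low counts and no block, and 2 did with the replicate number as a block. With edgeR, the filter and no block, 0 of 56 tests of a gene in a region were called at an adjusted p of 0.05, where 5.17% of all 71817 such tests were called. At an unadjusted p of 0.05 there were 5 of 56, where 13.8% of all tests passed. DESeq2 called 0 of the same 56. Same-numbered animals of the arms shared a plate, and with the number as a block 2 of 56 were called, Penk in CER and Npy in PFC, where 6.41% of all tests were called. By region, the share of all genes called beside these zeros was 6.18% in CER and 6.14% in PFC, then 5.63% in PVN, 5.62% in AMY and 5.45% in vCA1, and lowest in dCA1 (4.68%), vDG (3.93%) and dDG (3.70%). The estimates ran from -0.67 (Tac1 in dDG) to 0.44 (Penk in CER) on the log2 scale, with 20 above and 36 below 0 and a median SE of 0.203. Of the 95% intervals, 54 of 56 lay between -1 and 1 on the log2 scale, and the exceptions were Cck in CER and Tac1 in dDG. Tests were open to 2 regions for Cartpt, 3 for Nts, Adcyap1 and Vip, 5 for Pdyn and all 8 for the other genes, since a filter on low counts removed the rest. The median estimate of the genes tested ran from -0.18 (vDG) to 0.04 (PVN), beside -0.02 to 0.00 for all genes tested in the same regions.

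**Figure D3:**
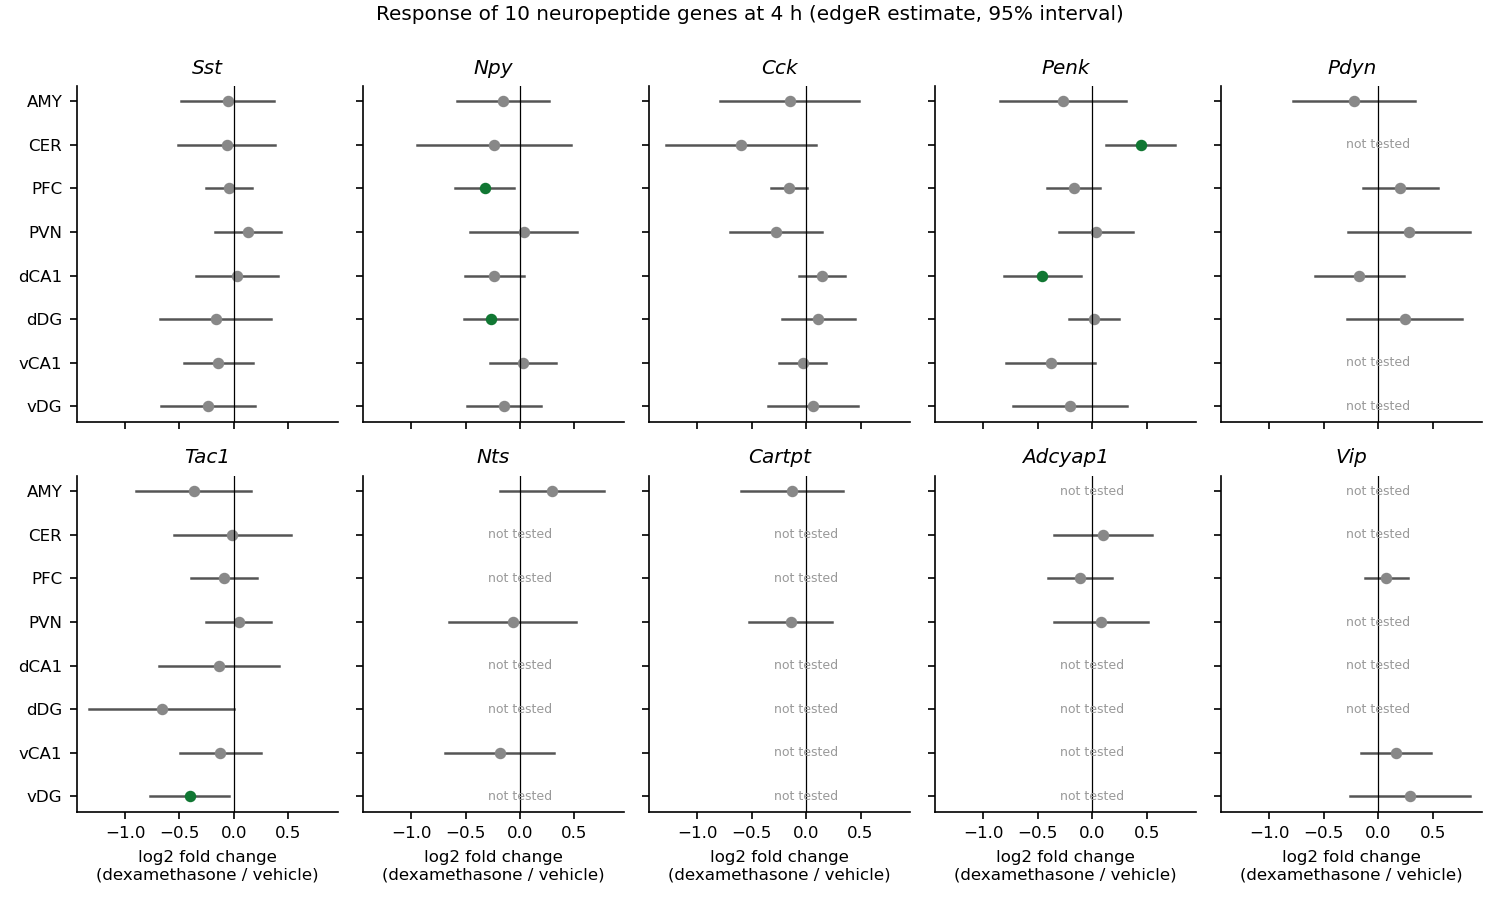
Estimated log2 fold change of dexamethasone over vehicle for each gene (panel) and region (row), with 95% intervals from edgeR. Green points have an unadjusted p under 0.05, grey points do not, and "not tested" marks genes removed by the filter on low counts. Most intervals span 0, and the 5 green points are Npy in PFC and dDG, Penk in CER and dCA1, and Tac1 in vDG.

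Penk in CER was the nearest to the threshold. Vehicle libraries ran from 42.2 through a median of 109 to 169 CPM, and dexamethasone libraries from 70.9 through 140.0 to 250 CPM. The ranges overlapped, but 12 of 15 dexamethasone libraries lay above the vehicle median and 4 above the highest vehicle library. The estimate was 0.44 ± 0.155 on the log2 scale (SE, edgeR, adjusted p = 0.0908), and it was positive within 4 of 4 plates and on the 4 of 5 punching dates that had at least 2 libraries of each arm. The date left out, with 1 vehicle and 2 dexamethasone libraries, gave 0.54. With the replicate number as a block Penk passed (0.43, adjusted p = 0.00161, 7.38% of genes called), and with date and plate as factors it passed as well (0.40, adjusted p = 0.0450, 6.80% of genes). The striatal list of these punches was at 2.79 ± 0.433 in vehicle and 2.91 ± 0.316 in dexamethasone libraries (mean log2(CPM + 1), SD, n = 15 each), and the interneuron list at 4.96 ± 0.229 and 4.99 ± 0.237. Other lists moved more. The hypothalamic list moved by 0.21, the CA pyramidal by -0.16, the glutamatergic by -0.25 and the dentate granule list by -0.29. The endothelial list moved by -0.44, the blood list by -0.52 and the microglial list by -0.64. Lists as such were not tested. Single genes of the marker lists did differ in CER. Ppp1r1b of the striatal list rose by 0.45 ± 0.103 and Prox1 of the dentate list fell by 1.04 ± 0.141 (SE, edgeR, adjusted p = 0.00230 and 3.72e-07). Ppp1r1b was also called higher in PVN and vDG. Prox1 was also called lower in AMY and PVN, and in no hippocampal punch. Whether these 2 genes stand for striatal or dentate cells in CER, and their part in the Penk value, was not tested.

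The same gene went the other way in dCA1. Vehicle libraries held 22.5, 68.1 and 164 CPM of Penk and dexamethasone libraries 26.2, 53.0 and 84.5 CPM, and 11 of 13 dexamethasone libraries were below the vehicle median. The estimate was -0.46 ± 0.174 (SE, edgeR, adjusted p = 0.162), negative in 3 of 4 plates and on the 4 of 5 dates with at least 2 libraries of each arm. The date left out, with 1 library of each arm, gave -0.40. Whether the response of Penk differed among the 8 regions was tested directly, and it did not pass (F = 1.66, adjusted p = 0.932). The dentate granule cell list, as a mean log2(CPM + 1), stood at 6.91 ± 0.491 (SD, n = 15) in vehicle and 6.49 ± 0.891 (SD, n = 13) in dexamethasone dCA1 libraries. Of its 9 genes 2 passed the threshold there: Plk5 fell by 0.82 ± 0.193 (SE, edgeR, adjusted p = 0.00562) and C1ql2 by 0.64 ± 0.191 (SE, edgeR, adjusted p = 0.0411). With that list as a covariate the Penk estimate was -0.42 ± 0.177 (SE, edgeR, adjusted p = 0.177).

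The Npy estimate was below 0 in 6 of its 8 tests, none past the threshold without a block. In PFC the vehicle libraries ran from 86.2 through 133 to 251 CPM and the dexamethasone libraries from 57.5 through 123 to 156 CPM, with 10 of 14 below the vehicle median (-0.32 ± 0.134, SE, edgeR, adjusted p = 0.191). With the replicate number as a block it passed (-0.31, adjusted p = 0.0314, 8.02% of genes called). The difference was negative in 4 of 4 plates and on the 4 of 5 dates with at least 2 libraries of each arm, and the date left out, with 1 library of each arm, gave -0.76. In dDG, 55.4, 91.3 and 167 CPM stood against 51.8, 85.5 and 114 CPM (-0.27 ± 0.121, SE, adjusted p = 0.307), with 9 of 15 dexamethasone libraries below the vehicle median. The dDG difference was negative in 4 of 4 plates and on 3 of the 4 dates with at least 2 libraries of each arm (-0.48 to 0.18), and the date left out, with 1 vehicle and 2 dexamethasone libraries, gave -0.22. Tac1 in vDG was the last of the 5, at 7.60, 25.8 and 38.0 CPM in vehicle and 4.55, 19.6 and 32.7 CPM in dexamethasone libraries (-0.40 ± 0.179, SE, adjusted p = 0.323), with 14 of 15 dexamethasone libraries below the vehicle median. It was negative in 4 of 4 plates and on 3 of 4 such dates (-1.42 to 0.22), and the date left out gave -0.37.

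**Figure D4:**
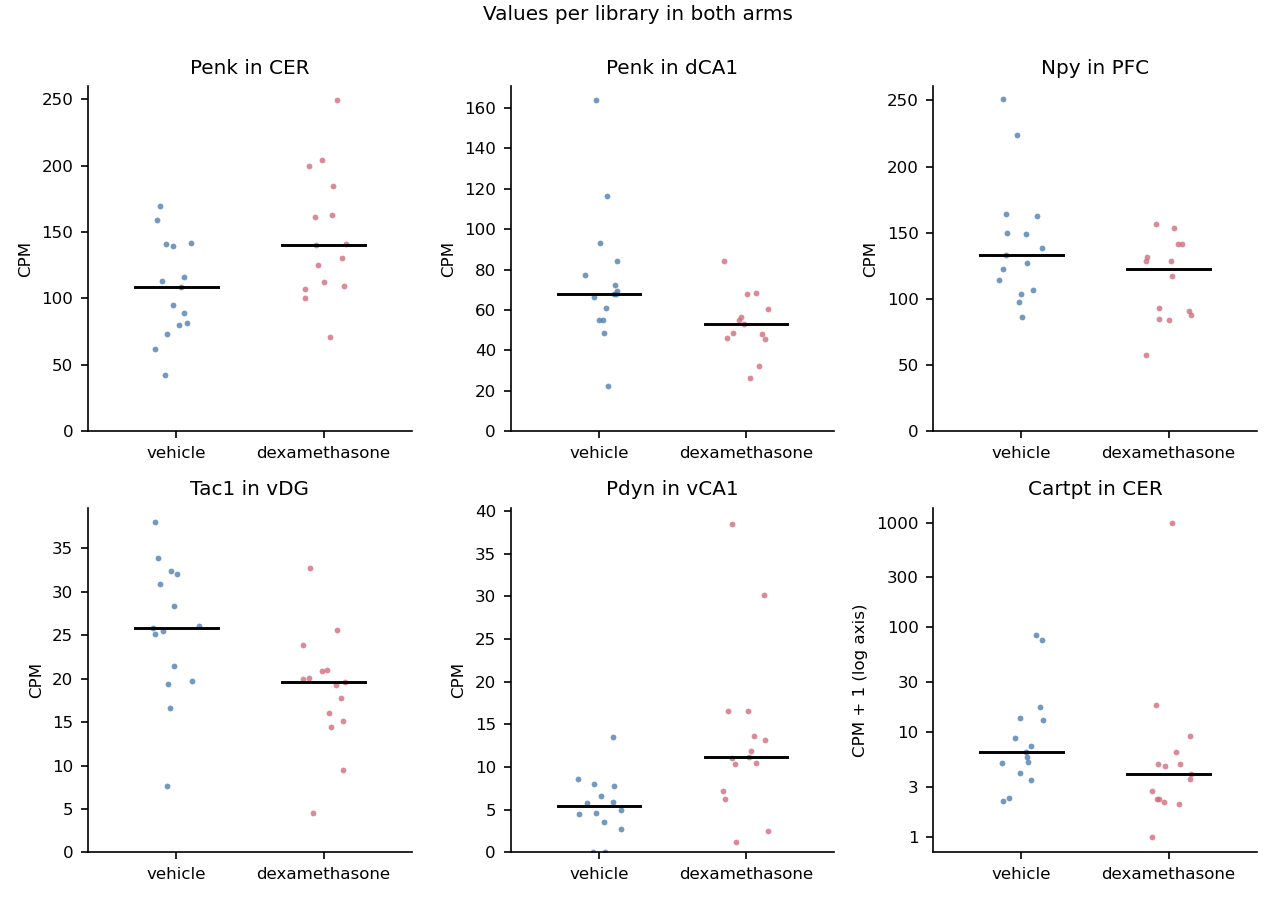
Values per library for the 4 gene and region pairs of lowest p among Penk, Npy and Tac1, and for Pdyn in vCA1 and Cartpt in CER, which the filter removed. Points are libraries, black lines are medians, and the Cartpt panel has a log axis of CPM + 1. The arms overlap in each panel, and 1 dexamethasone library of CER has 986 CPM of Cartpt.

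Without the filter on low counts, 80 tests were possible and 1 was called (3.33% of all tests without the filter): Pdyn in vCA1, where 3.76% of genes were called. The other regions had 0 peptide genes called, beside 4.06% of genes in PFC, 3.70% in CER, 3.54% in PVN and 3.45% in AMY, and beside 3.03% in dCA1, 2.69% in vDG and 2.44% in dDG. Vehicle libraries ran from 0 through 5.41 to 13.6 CPM and dexamethasone libraries from 1.21 through 11.2 to 38.5 CPM, 5 of 15 of which lay above the highest vehicle library. The estimate was 1.25 ± 0.335 on the log2 scale (SE, edgeR, adjusted p = 0.0190). The difference was positive within 4 of 4 plates and on 3 of the 4 dates with at least 2 libraries of each arm (-0.14 to 2.92). The date left out, with 1 vehicle and 2 dexamethasone libraries, gave 1.51. The dentate granule list moved with Pdyn. It stood at 4.16 ± 0.707 in vehicle libraries (SD, n = 14) and 4.99 ± 0.773 in dexamethasone libraries (SD, n = 15), and its members Dsp, Npnt and C1ql2 were called higher in these punches by 1.95, 1.22 and 1.08. Pdyn correlated with the list in the dexamethasone libraries at r = 0.83 (rho = 0.66, permutation p = 0.00024 and 0.00878, adjusted p = 0.0185 and 0.202, n = 15), and at r = 0.65 without the 2 farthest libraries. In the vehicle libraries the values were r = 0.57 and rho = 0.73 (permutation p = 0.033 and 0.00403, adjusted p = 0.312 and 0.147, n = 14). With the list as a covariate, an alternative chosen after seeing the data, the Pdyn difference came to 0.40 ± 0.317 (SE, edgeR, adjusted p = 0.745). The list itself differed between the arms, so a change in Pdyn and a change in the dentate share of the punch cannot be told apart here. In dDG, where Pdyn was tested, it was 0.24 ± 0.261 (SE, adjusted p = 0.812).

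Cartpt in CER, also removed by the filter, turned on 1 library. Dexamethasone replicate 4 had 1015 Cartpt counts, or 986 CPM, against a group median of 2.97 CPM, while the vehicle group had a median of 5.40 and a highest value of 84.2 CPM. In dexamethasone replicate 4, Penk stood at 125 CPM and Sst at 49.5 CPM. That Sst value was the lowest of the 15 dexamethasone CER libraries, and the lowest vehicle CER library had 37.4 CPM. With all libraries and no filter the estimate was 2.38 ± 0.788 on the log2 scale (SE, edgeR, adjusted p = 0.0886). Without that library it was -1.99 ± 0.551 (SE, adjusted p = 0.0245, 3.62% of genes called), and the vehicle side then held the 2 libraries of 84.2 and 75.1 CPM.

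Among the other genes the largest estimates had wide intervals. Tac1 in dDG was at -0.67 (95% interval -1.33 to 0.00, edgeR, adjusted p = 0.392), with vehicle libraries of 4.83, 27.4 and 89.5 CPM and dexamethasone libraries of 4.29, 20.4 and 41.0 CPM. Cck in CER was at -0.60 (-1.29 to 0.09, adjusted p = 0.487), where vehicle replicate 9 stood apart. Sst had the smallest estimates of the genes tested everywhere, from -0.24 to 0.13, and PFC had the lowest median SE of the 8 regions, 0.128. There Sst was at -0.05 (-0.26 to 0.16), Vip at 0.07 (-0.13 to 0.27) and Cck at -0.16 (-0.32 to 0.00).

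Responses were then compared among regions and averaged over them. The region-by-treatment F test of edgeR, with the animal as a block, called 0 of 10 genes, where 1.27% of 11053 genes were called, and the lowest unadjusted p was 0.0843, for Pdyn. The mean response over the 8 regions, from limma with the animal as a correlated block, called 0 of 10, where 20.9% of genes were called, and no gene had an unadjusted p under 0.05. The mean estimates ran from -0.20 (Cartpt, 95% interval -0.54 to 0.15) to 0.24 (Pdyn, -0.06 to 0.54). With edgeR quasi-likelihood and no animal block in place of limma with the block, the Cartpt mean was 0.19 (adjusted p = 0.669). That alternative changed the method as well as the block. The region-by-treatment F test of edgeR without the animal block passed for Cartpt (F = 4.24, adjusted p = 0.0239). The cause of either change was not tested. The tightest were Npy at -0.14 (-0.29 to 0.02), Sst at -0.04 (-0.20 to 0.12) and Cck at -0.05 (-0.22 to 0.12).

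Genes that receive or process the peptides were read beside them, against the 5.17% of all tests called. Of 18 listed peptide receptors, 10 could be tested in at least 1 region, and 2 of 39 tests were called. Cckbr, the brain cholecystokinin receptor, fell in PFC by 0.97 ± 0.104 on the log2 scale (SE, edgeR, adjusted p = 1.24e-09), from 67.2 to 33.6 CPM in the mean. PFC was the sole region in which Cckbr passed the filter and could be tested. Oprk1, the dynorphin receptor, rose in PVN by 0.41 ± 0.116 (SE, adjusted p = 0.0236), from 26.2 to 34.7 CPM. Of 99 tests of 13 processing and vesicle genes, 1 was called: Cadps2, a vesicle priming factor, fell in vCA1 by 0.53 ± 0.160 (SE, adjusted p = 0.0402). Of 21 tests of other neuropeptides, 1 was called: Tac2, the precursor of neurokinin B, rose in AMY by 0.91 ± 0.275 (SE, adjusted p = 0.0381), from 85.1 to 162 CPM.

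Interneuron genes other than the peptides were called in 5 of 84 tests, all higher, beside 5.17% of all tests. Among them, Lamp5 rose in PFC by 0.34 ± 0.0988 (SE, adjusted p = 0.0264). The GABA-synthesising enzymes Gad1 and Gad2 were called in none of the 8 regions, with estimates of -0.31 to 0.04 and -0.17 to 0.11. Of the CREB and activity genes, 3 of 64 tests were called, beside 5.17% of all tests: Bdnf fell in PFC by 0.45 ± 0.130 (SE, adjusted p = 0.0239), Arc fell in CER by 0.79 ± 0.213 (SE, adjusted p = 0.0124), and Per1, which is also a glucocorticoid target, rose in PFC by 0.37 ± 0.113 (SE, adjusted p = 0.0359). Among markers of non-neuronal cells, 16 of 42 tests of microglial genes and 19 of 40 of endothelial genes were called lower and none higher, and their part in the peptide values was not tested.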

How the data were processed

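The 10 genes and all gene lists were chosen with earlier results of these data known. Per the submitters' processing notes, reads were processed with cutadapt, UMI-tools 0.5.4, STAR 2.6.0a and featureCounts 1.6.4 on mm10, and the deposited table holds whole-number counts per gene. The authors also deposited log2 values, variance-stabilised with DESeq2 1.30.1 per the notes and file names, for 228 libraries; these served only to list the 7 libraries they leave out. The use of strand is not given in the sources used here. Symbols came from GENCODE M21 by identifier (27645 genes), and 99.9% of them overlapped their GRCm38 position. No exon of the 10 genes overlapped another gene.

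Groups were taken from titles and treatment labels. Where nothing else is stated, genes passing filterByExpr were fitted per region with edgeR 4.0.16 quasi-likelihood (TMM factors, dexamethasone against vehicle, no covariate) and adjusted by Benjamini-Hochberg over all genes tested, with a threshold of 0.05. SE is the absolute log2 fold change over the square root of F. Regions were compared in vehicle libraries with the animal as a factor; the mean response used limma 3.58.1 voom with the animal as a correlated block. DESeq2 1.42.0 was an alternative. Same-numbered animals of the arms were different animals, but the labels put all 115 same-numbered pairs of libraries on 1 plate each and 109 on 1 punching date, so the number was also fitted as a block and its value is given where it changes a call. The correlation of the pairs' deviations from their group means ran from -0.13 to 0.49. The procedures were tested on simulated data. Named genes follow a rule: the 10 genes everywhere, single responses at an unadjusted p under 0.05, the nearest 3 genes by correlation, and at most 4 called genes per list. Pdyn in vCA1, Cartpt in CER, Tac1 in dDG, Cck in CER, Gad1, Gad2 and the relations to marker lists were chosen after their values were seen. Results of a few named genes are not reported here. Correlations used log2 CPM with a prior count of 2 and 100000 permutations. The samples are separate animals per arm, and intervals cover the spread between libraries. R 4.3.3, Python 3.11.15, numpy 2.4.6, scipy 1.17.1, pandas 2.3.3 and matplotlib 3.10.9 were used.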

Additional observations from a re-analysis of the deposited data

How the results depend on the processing

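The regional difference of the 10 genes kept its call in all 40 alternatives run (no animal block, other size factors, no filter, without libraries of RIN under 5), with the same highest and lowest region except for Penk, whose lowest region was vCA1 in place of vDG without libraries of RIN under 5 (range 4.37). The count of peptide genes called for dexamethasone was 0 in each region where they were run with DESeq2, RIN as a covariate or a marker list as a covariate. It was 0 as well with a fixed filter (10 counts in 13 libraries), which tested 7 peptide genes in place of 6 in dDG and vDG. It was also 0 without the 7 libraries that the authors' log2 tables leave out, an alternative chosen after seeing the data. It was 1 in CER with the replicate block (Penk, 0.43, adjusted p = 0.00161), 1 in CER with date and plate as factors, 1 in CER without the filter and without the library of highest Cartpt (also chosen after seeing the data), 1 in PFC with the replicate block (Npy, -0.31, adjusted p = 0.0314), and 1 in vCA1 with no filter (Pdyn). Among the 56 tests that passed the filter, the replicate block changed no other call. It was not fitted without the filter, so the unfiltered calls were not tried with it. With no replicate block for the animal, Cartpt alone passed the region-by-treatment test of edgeR (F = 4.24, adjusted p = 0.0239). Its mean response was 0.19 in place of -0.20 when edgeR without the block replaced limma with it. Method and block changed together there, and the cause of either change was not tested. Of the 80 pairs of gene and region, 24 were removed by the filter on low counts, so Nts, Cartpt, Adcyap1 and Vip were tested in most regions only without it.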
